A study of Mus musculus with 3 samples.

Results

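The genes of the mitochondrial respiratory chain and ATP synthase were measured in spatial transcriptomes of the mouse thymus. Members were chosen by symbol, as genes starting with Ndufa, Ndufb, Ndufc, Ndufs, Ndufv, Uqcr, Cox4 to Cox8, Atp5, mt-Nd, mt-Co, mt-Cytb or mt-Atp, without pseudogenes and without the muscle and brown fat isoforms *Cox7a1* and *Cox8b*. The rule found 105 of 54838 listed genes, of which 92 lie in the nuclear genome and 13 in the mitochondrial genome. By symbol, 41 nuclear and 7 mitochondrial genes belonged to complex I, 8 nuclear genes (the Ndufaf genes) were complex I assembly factors, 8 nuclear and 1 mitochondrial gene belonged to complex III, 17 nuclear and 3 mitochondrial genes to complex IV, and 18 nuclear and 2 mitochondrial genes to complex V, the ATP synthase. A unique molecular identifier (UMI), the tag that marks 1 captured transcript, was counted in each section for 104 of the 105 members. *Cox8c*, a testis isoform of cytochrome oxidase subunit 8, had 0 UMIs in every section, and a count of 0 allows up to 0.0741 CPM, that is UMIs scaled to a common total per area, in the WT thymus area.

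Complexes I, III and IV pass electrons from NADH and ubiquinol to oxygen and pump protons across the inner mitochondrial membrane, and complex V uses the proton gradient to make ATP. Each of these complexes is built from subunits of both genomes, so nuclear and mitochondrial transcripts are made by separate machineries for 1 product. Brown adipocytes, which lie near the thymus in the chest, are known for dense mitochondria and for the uncoupling protein Ucp1, which lets protons return without ATP synthesis.

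The sections came from 3 female C57BL/6 mice, of which 2 were Trp53-/- (KO, labelled KO1134 and KO1308, aged 17 and 21 weeks) and 1 was Trp53+/+ (WT, labelled WT1101, aged 17 weeks). *Trp53* encodes p53, and the labels name no cell type for the deletion, so thymocytes, stroma and neighbouring fat carry it alike. All mice were perfused with saline before dissection, and the KO tissue was permeabilised for longer than the WT tissue, so that this step and genotype cannot be told apart. With 1 WT section there was no spread between WT mice and no test between genotypes was made.

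The sections held 31237062 (KO1134), 21089885 (KO1308) and 41581477 (WT) UMIs, which were summed in square bins of 27 µm. Bins with at least 300 genes numbered 12004, 15821 and 27009 over tissue, with means of 2592, 1102 and 1500 UMIs. Pairs of sections shared between 54718 and 58533 spot barcodes, of at least 1658021 in each. The targeted gene *Trp53* was counted at 15.02 and 26.6 CPM in the KO thymus areas against 79.9 CPM in WT. The KO1134 section held 0.188 of the WT level (95% interval 0.167 to 0.210) and KO1308 0.333 (0.299 to 0.370). Residual counts can lie outside the deleted sequence, which was not given in the sources used here. Areas were set by marker genes, without use of the members. The thymus area took 66.4%, 85.6% and 99.7% of the tissue bins. The rest of both KO sections held areas led by B cell genes, white fat and brown fat, and 79 bins of KO1308 were led by cardiac muscle genes. In the thymus areas, the thymus marker list stood at 0.370 (KO1134) and 0.764 (KO1308) of its WT level and the medulla list at 2.81 and 3.13 times. The part of this tissue makeup in the genotype values below was not tested. Bins hold several cells, so that fewer cells of a type and less RNA per cell cannot be told apart.

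Intervals in the text are exact 95% intervals that cover counting error only. CPM values relate a gene's UMIs to all UMIs of the same area, without a correction for transcript length, so that no order was drawn between genes.

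In the KO sections, member sums differed most between brown fat and the other areas, and the genomes differed in how far. Cortex and medulla of 1 section did not always lie further apart than the same area of different sections. In cortex the nuclear members summed to 24981 (KO1134), 20634 (KO1308) and 22644 CPM (WT). In medulla they summed to 19308, 16245 and 19534 CPM, and in the brown fat areas, which only the KO sections held, to 51651 and 81408 CPM. The 13 mitochondrial members summed in cortex to 9359, 9892 and 8099 CPM, in medulla to 7279, 8335 and 5054 CPM, and in brown fat to 116033 and 177838 CPM. Brown fat therefore stood above every other area for both groups of members in both KO sections. White fat lay close to cortex for the nuclear members, at 1.05 and 1.01 times, but at 2.74 and 2.11 times for the mitochondrial members. It was parted from brown fat by a limit on *Ucp1* UMIs only. *Cox8b* stood there at 153 and 43.0 CPM, against 10.7 and 17.8 CPM in cortex (KO1134, KO1308). The part of brown fat RNA in the white fat values was not tested. The cardiac muscle area of KO1308 stood between, at 1.53 times cortex for nuclear and 4.50 times for mitochondrial members. The B cell area differed between the KO sections, its mitochondrial members standing at 1.39 times the medulla in KO1134 and 0.691 times in KO1308.

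**Figure D1:**
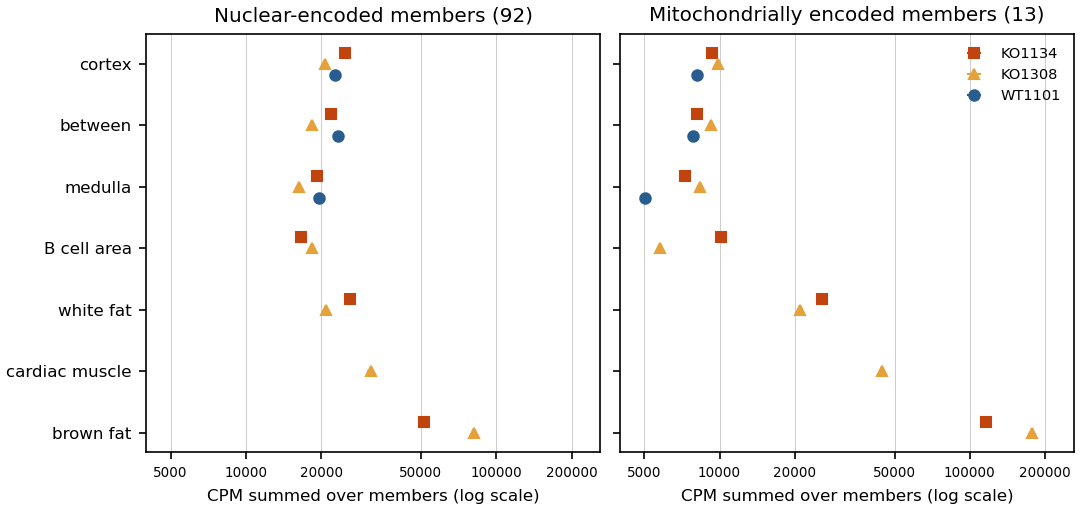
CPM summed over the 92 nuclear (left) and 13 mitochondrial (right) members, on log axes, in each area (rows) of each section (symbols); counting intervals are smaller than the symbols. Brown fat is highest in both panels, at 116033 and 177838 CPM for the mitochondrial members, and white fat stands apart from cortex only in the right panel.

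The ratio of mitochondrial to nuclear UMIs needs no scaling to the area's total. It was 0.375 (KO1134), 0.479 (KO1308) and 0.358 (WT) in cortex, and 0.377, 0.513 and 0.259 in medulla. In brown fat it was 2.25 and 2.18, in white fat 0.981 and 1.00, and in cardiac muscle 1.42. Both genomes' members together took 3.24%, 2.88% and 3.01% of the thymus area's UMIs and 16.8% and 25.9% of those in brown fat. The brown fat label was checked with *Cidea*, a lipid droplet gene of brown adipocytes that did not set the area. It stood at 714 and 1344 CPM there, at 24.7 and 1.59 CPM in white fat and at 1.36, 3.79 and 0 CPM in cortex.

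In brown fat, 45 of 87 nuclear members with at least 100 UMIs over the thymus areas stood at least 2-fold above cortex in both KO sections, as did 13 of 13 mitochondrial members. Over all 14024 genes with at least 100 UMIs in these areas, 5.97% did. The median nuclear member stood at 2.06 times cortex in KO1134 and 3.83 times in KO1308, against medians of 0.635 and 0.363 over the 2272 genes with at least 100 CPM in the WT thymus area. Ribosomal protein genes lay lower in brown fat than in cortex, summing to 0.917 and 0.411 times. The mitochondrial members ranged from 6.53 to 16.8 times in KO1134 and from 13.6 to 26.2 times in KO1308. The brown fat of KO1308 thus stood further from its cortex than that of KO1134 for both genomes, and its *Ucp1* level was also higher, at 2371 against 661 CPM.

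The complexes took different parts in the brown fat difference. Complex III stood furthest above cortex among the nuclear sums, at 3.03 times in KO1134 and 5.99 times in KO1308. *Uqcrfs1*, the Rieske iron-sulphur subunit, went from 185 to 833 CPM in KO1134 and from 226 to 1513 CPM in KO1308. *Uqcrb*, a small complex III subunit, went from 306 to 1148 CPM and from 222 to 1744 CPM. Complex IV stood at 2.28 and 4.71 times and complex I at 2.30 and 4.18 times. *Ndufv1*, which binds NADH in complex I, went from 72.4 to 277 CPM and from 68.8 to 509 CPM. Assembly factors, which leave the finished complex, stood at only 1.14 and 1.31 times cortex. Complex V stood lower than complexes I, III and IV, at 1.45 and 2.64 times. The catalytic beta subunit *Atp5b* stood at 1.67 and 3.88 times cortex, whereas the genes of subunit c, which forms the rotating ring, did not follow it. *Atp5g1* went from 249 to 122 CPM and from 167 to 66.0 CPM, *Atp5g3* went from 978 to 704 and from 848 to 620 CPM, and *Atp5g2* from 273 to 183 and from 170 to 179 CPM. *Atp5g1* and *Cox6a2* were the nuclear members at least 2-fold below cortex in both KO sections, where 27% of all genes were. Brown fat is known for a low content of ATP synthase beside its electron transport complexes.

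All 13 mitochondrial members were higher in brown fat than in cortex. *mt-Nd4*, a proton-pumping subunit of complex I, went from 896 to 15095 CPM in KO1134 and from 730 to 19108 CPM in KO1308. *mt-Co1*, the catalytic subunit of complex IV, went from 1496 to 20872 CPM and from 1770 to 31090 CPM. The lowest ratio in KO1134 was that of *mt-Nd4l*, from 7.39 to 48.3 CPM, and the lowest in KO1308 was that of *mt-Co3*, from 1530 to 20872 CPM. Each mitochondrial member thus stood further above cortex than the nuclear sum of any complex. The isoforms left out by the rule marked the same areas: *Cox7a1* stood at 957 and 1676 CPM in brown fat and 311 CPM in cardiac muscle, against 7.05, 7.96 and 6.42 CPM in cortex.

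Brown fat RNA in the thymus area was estimated from *Ucp1*. The thymus areas held 10 (KO1134), 63 (KO1308) and 1 (WT) *Ucp1* UMIs. Scaled to the brown fat areas, these would bring 78.7 and 324 CPM of mitochondrial members, of 8814 and 9468 CPM measured in the thymus area. Without them the KO over WT ratio of the mitochondrial members was 1.15 and 1.20. The brown fat areas were themselves chosen by *Ucp1*, so the estimate may lie too low. It does not cover white fat, whose part was not tested. In thymus bins at least 540 µm from brown fat the KO over WT ratio was 1.16 and 1.245. These were 7609 of the 7976 thymus bins in KO1134 and 12954 of 13536 in KO1308, so the ratio had little room to move. *Ucp1* still stood at 4.01 CPM in those bins of KO1308, against 4.31 CPM in its whole thymus area.

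**Figure D2:**
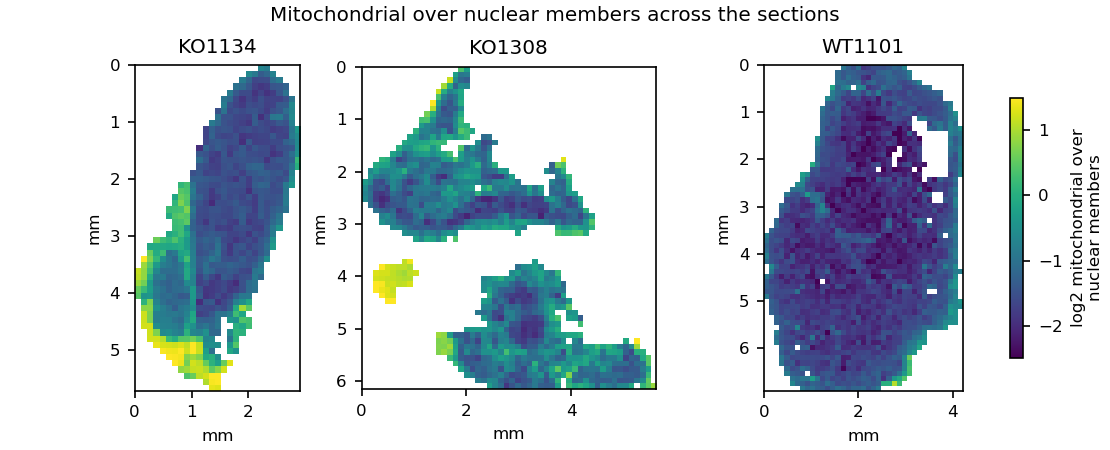
Map of the log2 ratio of mitochondrial to nuclear members (colour) in square tiles over each section, with axes in millimetres from the corner of the tissue. The brightest tiles are the brown fat of both KO sections, and a brighter rim follows the tissue edge in all 3 sections.

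The mitochondrial members were higher along the tissue edge in all 3 sections, a pattern that was chosen for measurement after the map had been seen. In thymus bins within 135 µm of the edge they summed to 12023 (KO1134), 12231 (KO1308) and 12234 CPM (WT). From 135 to 270 µm they summed to 8888, 8597 and 8399 CPM, and beyond 270 µm to 8053, 8310 and 6186 CPM. The 3 sections thus lay together at the rim and apart in the interior. The nuclear members summed to 24482, 19700 and 25566 CPM at the rim and 22965, 18670 and 21553 CPM in the interior. In cortex alone, where no medulla enters, the mitochondrial sum was 1.41, 1.60 and 1.85 times higher at the rim than beyond 270 µm, and the nuclear sum 0.976, 1.02 and 1.15 times.

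The rim and inner cortex of the 3 sections were compared with edgeR, the section being a block. Of the 13 mitochondrial members, 12 were higher at the rim (adjusted p under 0.05 over all genes), where 0.563% of 15812 genes were higher and 0.531% lower. Of 88 nuclear members tested, 0 were higher and 0 lower in edgeR, and 7 and 1 at an unadjusted p under 0.05; DESeq2 called 10 mitochondrial and 0 nuclear members at the rim. *mt-Nd3*, a small membrane subunit of complex I (chrM:9459-9806 in GRCm38), stood at 202, 228 and 101 CPM at the rim against 125, 110 and 30.7 CPM inside (KO1134, KO1308, WT), a log2 difference of 1.18 ± 0.14 (SE, edgeR adjusted p = 1.44e-05). *mt-Nd1*, a core subunit beside the quinone site, stood at 1126, 978 and 559 CPM against 727, 584 and 281 CPM. The called differences ran from 0.60 (*mt-Nd4*) to 1.18 on the log2 scale. *mt-Nd4l* was higher in all 3 sections but was not called (0.87 ± 0.29, edgeR adjusted p = 0.204), with 34, 26 and 17 UMIs at the cortex rim and 49, 8 and 25 inside. All 13 mitochondrial members and 22 of 87 nuclear members were higher at the cortex rim in each of the 3 sections, as were 11.8% of all genes. Without KO1308, 6 mitochondrial members were called. Other measures moved with the rim. Ribosomal protein genes summed at the cortex rim to 1.03 (KO1134), 1.04 (KO1308) and 1.44 (WT) times their level inside, with 52, 64 and 79 of 79 higher. The median bin of the cortex rim held 2433, 830 and 2296.5 UMIs against 2960, 1093 and 1371 inside, so that rim bins were shallower in both KO sections and deeper in WT. Adipocyte markers stood at 251, 424 and 138 CPM at the rim and 248, 270 and 127 CPM inside. *Ucp1* had 3, 16 and 0 UMIs in the cortex rim and 2, 5 and 1 inside. The part of depth and fat in the rim values was not tested.

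In the thymus area the KO over WT ratio differed between the genomes. The nuclear members summed to 23576 (KO1134), 19284.5 (KO1308) and 22479 CPM (WT). The mitochondrial members summed to 8814, 9468 and 7622 CPM. The nuclear ratios to WT were 1.05 and 0.858, on both sides of 1, with a mean of 0.953 ± 0.135 (SD, n = 2 KO sections). The mitochondrial ratios were 1.16 and 1.24, with a mean of 1.20 ± 0.0607. The ratio of mitochondrial to nuclear UMIs was 0.374, 0.491 and 0.339, that is 1.10 and 1.45 times WT. Markers of other cell types stood above WT in the same thymus areas, the adipocyte list at 1.77 and 2.49 times, the B cell list at 2.11 and 2.72 times and the cardiac list at 1.80 and 4.19 times (KO1134 and KO1308). Their part in the ratios was not tested. The ratios changed with the place: at the rim the mitochondrial members stood at 0.983 and 1.00 times WT, and beyond 270 µm from the edge at 1.30 and 1.34 times. The rim held 17.6% and 33.5% of the thymus bins in the KO sections and 12.04% in WT. The area beyond 270 µm held 64.7% and 38.0% in the KO sections and 76.7% in WT. It has no outer limit, and distance was taken to the edge of all tissue, so place was not matched within it. Within cortex beyond 270 µm the ratios were 1.30 and 1.22. Shallow bins in KO1308 also stood apart from its deep bins. In the third of its cortex bins with the fewest UMIs (median 547) the mitochondrial to nuclear ratio was 0.678, and in the third with the most (median 1812) it was 0.426. In the corresponding bins of WT it was 0.361 and 0.372, and in KO1134 0.409 and 0.364.

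Few nuclear members differed from WT by 1.5-fold or more in both KO sections. Above WT there were 0 of 87, where 18.9% of 16899 genes were. Below WT there were 4, where 6.08% of genes were. Of any size, 14 nuclear members (16.1%) stood above WT in both KO sections, 41 (47.1%) below in both and 32 on different sides, against 42.8% above and 29.8% below over all genes. The median nuclear member stood at 0.985 and 0.859 times WT, and the median of the 2272 genes with at least 100 CPM in WT at 0.828 and 0.820. The KO sections differed in their counts: KO1134 alone had 8 nuclear members past 1.5-fold above and 10 below WT (25.9% and 18.1% of all genes), and KO1308 alone 0 and 13 (31.2% and 11.3%).

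The 4 nuclear members below WT past 1.5-fold in both KO sections came from complexes I and V. *Ndufs4*, an accessory subunit of complex I (chr13:114287795-114388258 in GRCm38), stood at 94.8 and 121 CPM in KO1134 and KO1308 and at 184 CPM in WT, that is 0.514 (0.490 to 0.540) and 0.659 (0.626 to 0.694) times WT. *Ndufs5*, another accessory subunit, stood at 84.4 and 90.7 against 142 CPM. *Ndufs1*, the large iron-sulphur subunit of the NADH arm, stood at 52.0 and 52.4 against 78.8 CPM. *Atp5h*, subunit d of the stator stalk of complex V, stood at 471 and 483 against 733 CPM. The 4 of 87 were no larger a share than that of all genes. In cortex alone and in medulla alone, no nuclear member was past the fold below WT in both KO sections. The promoters of the members that RefSeq lists are shown for 3 of these genes, as examples of where the searched motifs lie in member promoters. Each runs 5′ to 3′ on the gene's strand in GRCm38.p6, from 250 bases before the start to 50 after it, with matches to the motifs named below in capitals; *Ndufs1* was not matched.
Ndufs4 (chr13:114388045-114388344, minus strand): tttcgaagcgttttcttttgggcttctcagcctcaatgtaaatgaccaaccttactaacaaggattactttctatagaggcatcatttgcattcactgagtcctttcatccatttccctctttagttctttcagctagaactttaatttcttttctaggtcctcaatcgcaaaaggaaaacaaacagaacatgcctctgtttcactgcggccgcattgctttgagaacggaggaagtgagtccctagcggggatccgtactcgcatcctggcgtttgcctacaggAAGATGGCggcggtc
Ndufs5 (chr4:123718137-123718436, minus strand): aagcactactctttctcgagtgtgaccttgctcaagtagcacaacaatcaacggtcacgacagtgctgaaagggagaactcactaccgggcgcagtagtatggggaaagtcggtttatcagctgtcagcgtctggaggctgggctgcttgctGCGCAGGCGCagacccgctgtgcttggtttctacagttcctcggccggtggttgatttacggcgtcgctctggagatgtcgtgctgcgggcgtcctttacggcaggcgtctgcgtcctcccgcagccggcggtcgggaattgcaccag
Atp5h (chr11:115419870-115420169, minus strand): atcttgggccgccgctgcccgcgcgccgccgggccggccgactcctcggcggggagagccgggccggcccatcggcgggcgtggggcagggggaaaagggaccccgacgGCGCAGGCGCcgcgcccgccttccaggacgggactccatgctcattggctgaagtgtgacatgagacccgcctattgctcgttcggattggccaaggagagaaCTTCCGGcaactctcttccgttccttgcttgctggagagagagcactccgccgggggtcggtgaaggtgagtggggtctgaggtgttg
The first window holds 1 match to the YY1 letters, the second 1 match to the NRF1 letters, and the third both an NRF1 and an ETS match.

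Motifs were counted on both strands in the RefSeq promoters of 69 of the 91 nuclear member symbols. The letters searched were GCGC, any base, then TGCGC for NRF1, CCGGAAG for ETS factors such as GABP, AAGATGGC for YY1 and TCAAGGTCA for the estrogen-related receptors, all of which are known regulators of respiratory genes. NRF1 letters stood in 17 members (24.6%), against 5.19% of the 27025 genes with a window. ETS letters stood in 16 (23.2%, against 9.93%), YY1 letters in 10 (14.5%, against 3.19%) and receptor letters in 1 (1.45%, against 0.466%). In all, 37 of the 69 held at least 1 of the 4 motifs. A match describes the letters in the window, and binding was not measured.

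Within complex I, the other nuclear members were named by their size or ratio. *Ndufa4*, now often counted with complex IV, stood at 468, 464 and 477 CPM (KO1134, KO1308, WT). *Ndufa3*, a membrane-associated accessory subunit, stood at 369, 290 and 349 CPM, and *Ndufa2*, another accessory subunit, at 433, 340 and 335 CPM. *Ndufa4l2*, a relative of *Ndufa4* known to respond to hypoxia, stood at 5.78, 4.998 and 3.51 CPM, ratios of 1.65 (1.29 to 2.11) and 1.42 (1.06 to 1.90). As a sum, nuclear complex I stood at 0.978 and 0.843 times WT and the assembly factors at 0.887 and 0.916.

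In complex III no nuclear member was past 1.5-fold in both KO sections. *Uqcrh*, the hinge protein of complex III, stood at 524, 559 and 558 CPM, and *Uqcr10* at 302, 293 and 340 CPM. *Uqcrb* stood at 308, 215 and 402 CPM and *Uqcrfs1* at 180, 195 and 280 CPM, the lowest mean ratios of the complex. *Uqcr11* stood at 482, 273 and 303 CPM, so that KO1134 alone was above WT, and *Uqcrq* at 373, 311 and 299 CPM. The nuclear sum of complex III stood at 0.990 and 0.837 times WT.

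In complex IV and complex V the KO sections parted. *Cox5a*, a subunit near the matrix side of complex IV, stood at 707, 359 and 752 CPM, that is 0.940 and 0.477 times WT. *Cox6c* stood at 1315, 895 and 928 CPM, so that only KO1134 was above WT. *Cox6a1* stood at 745, 593 and 686 CPM, *Cox7a2* at 423, 349 and 471 CPM and *Cox6c2* at 91.2, 91.1 and 69.7 CPM. The nuclear sum of complex IV stood at 1.13 and 0.837 times WT and that of complex V at 1.07 and 0.893 times. *Atp5b* stood at 1042, 717 and 886 CPM and *Atp5a1*, the alpha subunit, at 1012, 809 and 852 CPM. *Atp5e*, a small subunit of the central stalk, stood at 456, 429 and 325 CPM and *Atp5g2* at 247, 161 and 143 CPM, above WT in both KO sections. *Atp5g3* stood at 883, 762 and 865 CPM. *Atp5o*, part of the stator, is listed under 2 identifiers whose genes overlap by 1769 bases on 1 strand, so its counts could be split between them.

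The mitochondrial members did not share 1 ratio. Past 1.5-fold above WT in both KO sections were 5 of 13, where 18.9% of all genes were, all but 1 of them subunits of complex I, and 10 of any size stood above WT in both. *mt-Nd1* stood at 730 (KO1134) and 679 CPM (KO1308) against 345 CPM in WT, which is 2.12 (2.07 to 2.17) and 1.97 (1.92 to 2.02) times higher. *mt-Nd3* stood at 130 and 152 against 47.8 CPM (2.72 and 3.17 times), and *mt-Nd5* at 67.5 and 58.6 against 28.2 CPM. *mt-Nd4l* stood at 6.45 and 8.83 against 2.32 CPM, and *mt-Atp8*, a small subunit of complex V, at 13.4 and 8.76 against 5.34 CPM. These members lay higher in both KO sections, at low counts for the last pair.

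The other 8 mitochondrial members were past 1.5-fold above WT in 1 KO section or in none. *mt-Nd4* stood at 838, 682 and 831 CPM (KO1134, KO1308, WT), *mt-Nd2* at 1398, 1044 and 1010 CPM and *mt-Nd6*, encoded on the opposite strand, at 460, 327 and 327 CPM. *mt-Cytb*, the mitochondrial subunit of complex III, stood at 1286, 1389 and 1338 CPM. *mt-Co1* stood at 1516, 1718 and 1805 CPM and was the member below WT in both KO sections. Its partners in complex IV lay above: *mt-Co2* at 622, 879 and 469 CPM and *mt-Co3* at 915, 1513 and 678 CPM. *mt-Atp6* stood at 831, 1009 and 737 CPM. *mt-Co1* therefore made up 17.2% and 18.2% of the mitochondrial members' UMIs in the KO sections and 23.7% in WT. Transcripts of this genome are cut from long precursors, and some genes overlap, *mt-Atp8* and *mt-Atp6* by 43 bases and *mt-Nd4l* and *mt-Nd4* by 7, so their counts are not fully separate. Mitochondrial ribosomal RNA, which is no member, stood at 2.66 and 2.45 times WT and mitochondrial transfer RNA at 2.10 and 2.34 times.

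**Figure D3:**
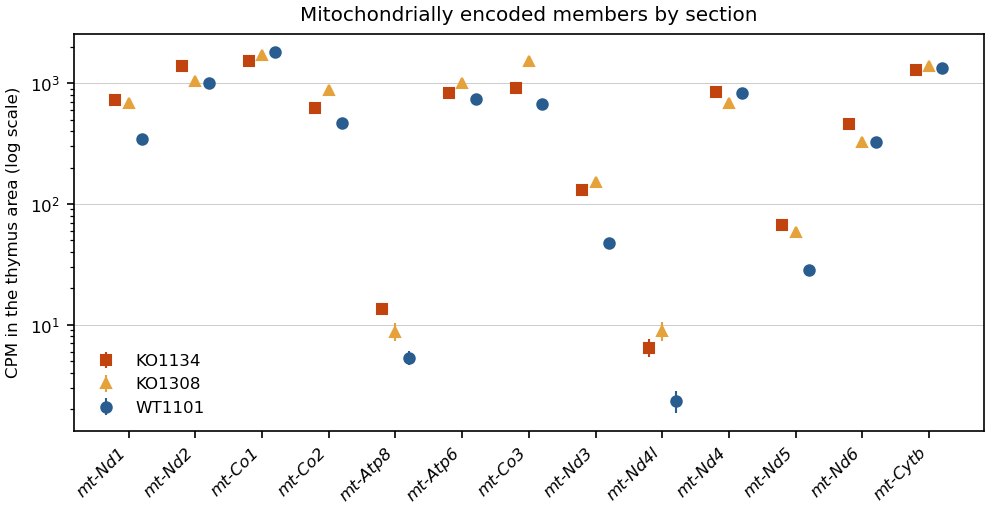
CPM in the thymus area (log axis) of each of the 13 mitochondrial members, in genome order, with 1 symbol per section and bars for the 95% counting interval. Both KO sections lie above WT for *mt-Nd1*, *mt-Nd3*, *mt-Nd4l*, *mt-Nd5* and *mt-Atp8*, and KO1308 lies furthest below WT for *mt-Nd4*, at 682 against 831 CPM.

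**Figure D4:**
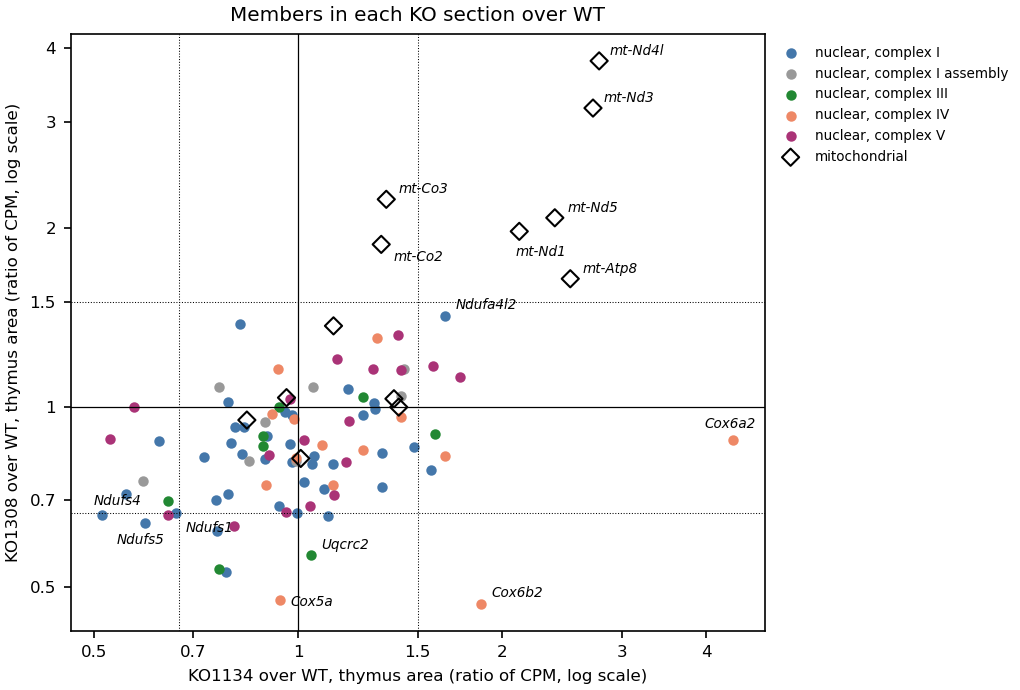
Ratio of CPM to WT in the thymus area, KO1134 on the horizontal and KO1308 on the vertical axis (both log), for the 87 nuclear (dots, by complex) and 13 mitochondrial (diamonds) members; dotted lines mark 1.5-fold. No nuclear dot lies past both lines above WT, where 5 diamonds lie.

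Medulla and cortex lie in the same sections, so they were compared over the 3 mice with edgeR, the section being a block. Of 102 members tested, 42 were higher in cortex, where 15.2% of all 17892 genes were, and 1 was higher in medulla, where 17.6% were. The cortex calls held 33 of 89 nuclear and 9 of 13 mitochondrial members. The median log2 difference, medulla minus cortex, was −0.35 for nuclear members, −0.56 for mitochondrial members and −0.05 for all genes. By complex, 13 of 39 nuclear genes of complex I, 3 of 8 of complex III, 8 of 16 of complex IV and 9 of 18 of complex V were higher in cortex. These were *Ndufa8*, *Ndufa12*, *Ndufab1*, *Ndufb6*, *Ndufb8*, *Ndufb9*, *Ndufb11*, *Ndufc2*, *Ndufs5*, *Ndufs6*, *Ndufs7*, *Ndufs8* and *Ndufv1* of complex I, *Uqcrc2*, *Uqcr11* and *Uqcrfs1* of complex III, *Cox5b*, *Cox6a1*, *Cox6a2*, *Cox6b1*, *Cox6b2*, *Cox7a2*, *Cox7b* and *Cox7c* of complex IV, and *Atp5a1*, *Atp5b*, *Atp5c1*, *Atp5g2*, *Atp5g3*, *Atp5h*, *Atp5j*, *Atp5j2* and *Atp5k* of complex V. Apart from *Cox6b2* and *Cox6a2*, their log2 differences ran from −0.72 (*Atp5b*) to −0.43 (*Cox6b1*). Of the 8 assembly factors 0 were called, and 0 had an unadjusted p under 0.05 in edgeR. Of 77 ribosomal protein genes 1 was higher in cortex and 3 in medulla. In bins over 270 µm from the tissue edge, 22 nuclear and 0 mitochondrial members were higher in cortex in edgeR, where 2037 of 16666 genes were. Of the mitochondrial members there, 3 had an unadjusted p under 0.05. Without KO1308 the cortex calls were 17, where 1375 of 17976 genes were called. Without WT they were 22, where 2158 of 17068 genes were.

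**Figure D5:**
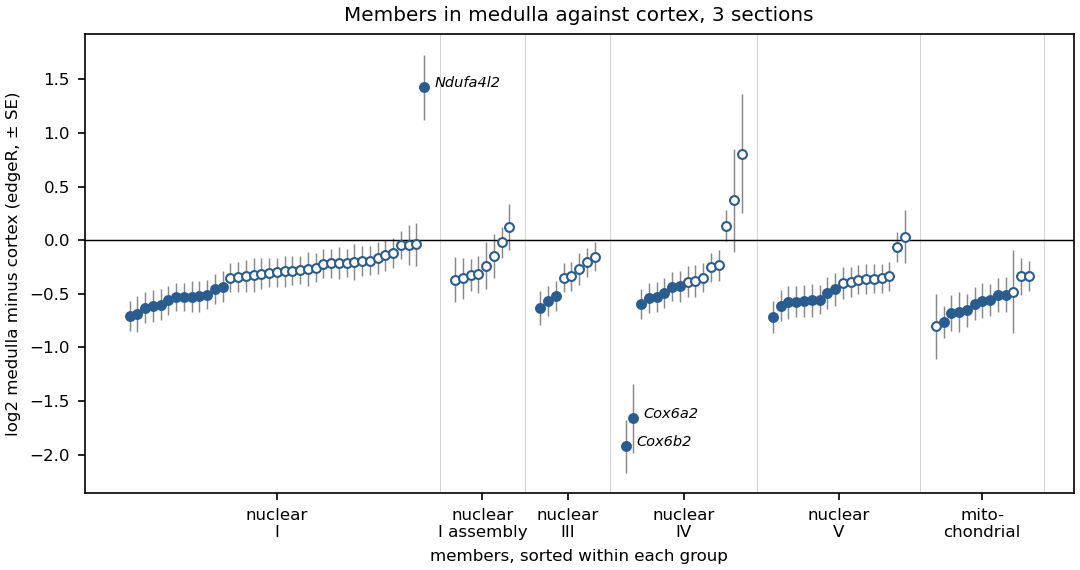
Log2 difference between medulla and cortex over 3 sections for each member tested, grouped by complex and sorted within it. Bars are the SE computed from the edgeR F statistic, and filled points have an adjusted p under 0.05. Most points lie below 0, *Cox6b2* and *Cox6a2* lie lowest at −1.92 and −1.66, and *Ndufa4l2* is the filled point above 0.

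Tissue isoforms of complex IV gave the widest cortex differences. *Cox6b2*, known as the testis isoform of subunit 6B (chr7:4751792-4753094), stood at 49.9, 13.9 and 23.7 CPM in cortex and 11.5, 2.39 and 9.88 CPM in medulla (KO1134, KO1308, WT). The difference was −1.92 ± 0.25 on the log2 scale (SE, edgeR adjusted p = 0.00042). *Cox6a2*, the isoform of subunit 6A of heart and skeletal muscle, stood at 20.3, 4.04 and 4.09 CPM in cortex and 5.91, 1.43 and 1.71 CPM in medulla (−1.66 ± 0.32, edgeR adjusted p = 0.0035). Cortex lay above medulla in all 3 sections for both, but some medulla values rest on few UMIs. The KO1308 medulla sum held 2085443 UMIs over the genes tested, so that 2.39 and 1.43 CPM there stand for a few UMIs each. Their widely expressed partners gave smaller estimates: *Cox6b1* stood at 613, 399 and 517 CPM in cortex against 433, 345 and 424 CPM in medulla, and *Cox6a1* at 821, 655 and 703 against 539, 447 and 557 CPM. These gave −0.43 (edgeR adjusted p = 0.040) and −0.59 (edgeR adjusted p = 0.0087). In the bins far from the edge *Cox6b2* gave −1.79 (edgeR adjusted p = 0.00096) and *Cox6a2* −1.71 (edgeR adjusted p = 0.0074).

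Against WT these isoforms went different ways in the KO sections. In the thymus area *Cox6a2* stood at 16.7 (KO1134), 3.36 (KO1308) and 3.81 CPM (WT). KO1134 stood at 4.38 (3.62 to 5.32) and KO1308 at 0.882 (0.626 to 1.22) times WT. *Cox6b2* stood at 39.8, 10.1 and 21.5 CPM, ratios of 1.86 and 0.469. KO1134 was above WT for both, and KO1308 was below for *Cox6b2*, while its interval for *Cox6a2* held 1. *Cox6a2* stood at 156 CPM in the cardiac muscle area of KO1308, and at 2.19 and 0 CPM in brown fat. The other isoforms were scarce: *Cox4i2* had 97 UMIs over the thymus areas and *Cox7b2* 86, beside *Cox4i1* at 304, 323 and 332 CPM and *Cox7b* at 594, 299 and 361 CPM. *Cox7a2l*, which joins complexes III and IV, stood at 230, 284 and 245 CPM, and *Cox8a* at 682, 465 and 548 CPM. The RefSeq promoters of the paired isoforms are given so that the widely expressed and the restricted genes can be set side by side, drawn as above; *Cox6a2* was not matched.
Cox6a1 (chr5:115348909-115349208, minus strand): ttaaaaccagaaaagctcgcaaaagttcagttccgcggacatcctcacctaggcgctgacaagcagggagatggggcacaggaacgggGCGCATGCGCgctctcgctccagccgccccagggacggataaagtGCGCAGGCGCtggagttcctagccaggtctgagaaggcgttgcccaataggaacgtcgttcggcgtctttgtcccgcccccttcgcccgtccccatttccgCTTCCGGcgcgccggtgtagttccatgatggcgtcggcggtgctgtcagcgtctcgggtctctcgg
Cox6b1 (chr7:30626065-30626364, minus strand): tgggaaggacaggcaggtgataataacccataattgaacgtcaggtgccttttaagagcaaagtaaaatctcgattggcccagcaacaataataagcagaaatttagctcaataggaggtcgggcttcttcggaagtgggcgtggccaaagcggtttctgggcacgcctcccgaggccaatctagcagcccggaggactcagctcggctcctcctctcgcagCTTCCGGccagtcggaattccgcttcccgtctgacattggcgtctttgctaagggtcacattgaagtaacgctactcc
Cox6b2 (chr7:4753045-4753344, minus strand): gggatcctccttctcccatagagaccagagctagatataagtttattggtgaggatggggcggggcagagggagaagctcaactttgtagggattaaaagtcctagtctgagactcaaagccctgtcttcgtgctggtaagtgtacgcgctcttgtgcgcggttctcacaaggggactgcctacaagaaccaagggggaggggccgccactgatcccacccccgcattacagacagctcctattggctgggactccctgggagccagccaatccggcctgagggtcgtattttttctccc
The *Cox6a1* window holds 2 matches to NRF1 letters and 1 to ETS letters, the *Cox6b1* window 1 to ETS letters, and the *Cox6b2* window none of the 4 motifs.

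Among the other cortex genes with the smallest p, *Ndufab1*, the mitochondrial acyl carrier protein, stood at 229, 134 and 192 CPM in cortex and 132, 93.1 and 136 CPM in medulla (−0.71 ± 0.14, edgeR adjusted p = 0.0039). *mt-Nd1* stood at 836, 739 and 360 CPM against 436, 542 and 236 CPM (−0.76 ± 0.15, edgeR adjusted p = 0.0043). *Atp5b* stood at 1189, 797 and 910 CPM against 644, 547 and 673 CPM (−0.72 ± 0.15, edgeR adjusted p = 0.0050). Each was lower in medulla in every section. *Ndufa4l2* went the other way, at 4.88, 4.17 and 2.28 CPM in cortex and 10.3, 10.98 and 9.69 CPM in medulla (1.42 ± 0.31, edgeR adjusted p = 0.0060). The mitochondrial members not called were *mt-Co1*, *mt-Co3*, *mt-Atp8* and *mt-Nd4l*.

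Genes that serve the chain without being members were counted from lists. Of 9 genes of complex II and the mobile carriers, 0 were past 1.5-fold in both KO sections in either direction, and 3 were higher in cortex than medulla in edgeR (*Sdhb*, *Cycs* and *Cyc1*). Of 12 cytochrome oxidase assembly genes, *Cox18*, which inserts a subunit in the membrane, stood at 17.4, 16.4 and 10.8 CPM (1.61 and 1.51 times WT). *Cox20*, a chaperone of *mt-Co2*'s protein, stood at 93.0, 78.9 and 160 CPM (0.582 and 0.494 times), and was the 1 gene of this list higher in cortex. Of 12 genes of mitochondrial DNA expression, 0 were past the fold in both and 3 were higher in cortex (*Polg*, the DNA polymerase, *Tfam*, the packaging factor, and *Ssbp1*). Of 7 nuclear regulators tested, *Ppargc1b*, a coactivator, stood at 7.13, 6.85 and 4.52 CPM and *Yy1* at 151, 147 and 241 CPM, and 3 were higher in cortex (*Gabpb1*, *Yy1* and *Nrf1*). Over all genes, 18.9% were past the fold above and 6.08% below, and 15.2% were higher in cortex than medulla in edgeR.

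Within each section the tiles of 270 µm that held at least 20 cortex bins varied. The mitochondrial to nuclear ratio ran from 0.311 to 0.506 (10th to 90th percentile) over 71 tiles of KO1134, from 0.347 to 0.731 over 104 tiles of KO1308 and from 0.249 to 0.481 over 206 tiles of WT. In medulla the ranges were 0.325 to 0.459, 0.431 to 0.7001 and 0.215 to 0.311. The WT medulla tiles thus lay below those of both KO sections in this range, while the cortex tiles overlapped. Medulla and cortex were set relative to each section's own share of list UMIs, and the medulla list stood higher in the KO thymus areas. The medulla of KO and WT need therefore not be the same compartment, and the part of this in the values was not tested.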

How the data were processed

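Spatial transcriptomes were made on slides of barcoded spots 4.8 µm apart. The authors deposited UMI counts, raw whole numbers for each gene in each spot, made with BSTMatrix and the STAR aligner on GRCm38 per the labels and the methods. Spots were summed in bins of 27 µm, and bins with at least 300 genes in connected groups of at least 200 bins were kept, without a limit on mitochondrial counts. No doublet caller was run, since a bin holds several cells. The members and gene lists were chosen with earlier results of these data known.

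Areas were set from marker UMIs in a window of 7 by 7 bins with at least 10 list UMIs. Bins took the area (thymus, B cell, adipocyte or cardiac muscle) with the most list UMIs, and adipocyte bins with at least 5 *Ucp1* UMIs in the window were brown fat. Medulla bins had at least 2 times the section's share of medulla list UMIs and less than its share of cortex list UMIs. The distance of a bin was taken to the nearest edge of the tissue. CPM, Poisson intervals and conditional binomial intervals of ratios were computed from the summed counts with scipy 1.17.1. Genes needed at least 100 UMIs over the thymus areas to be counted past 1.5-fold.

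Medulla and cortex sums (6 sums, 3 mice) were tested with the quasi-likelihood test of edgeR 4.0.16 in R 4.3.3, with TMM scaling, the section as a covariate and Benjamini-Hochberg adjustment over all genes tested. Cortex rim and inner cortex were tested likewise. The SE printed with an edgeR log2 difference is its absolute value over the square root of the test's F statistic. Both compartments of 1 section come from the same mouse, which is what pairs them. On simulated data, 108 of 200 genes changed 2-fold (54%) were recovered among 16646 genes, with 2 false calls, for medulla against cortex. Alternatives were DESeq2 1.42.0, RLE scaling, other filters, bins, areas and folds, and leaving out each section. Genes were named by a rule: all mitochondrial members, per complex the 3 nuclear members with the most CPM in WT and the 2 largest and 2 smallest mean log2 ratios, isoform pairs, the 5 smallest p per direction, and list genes past the fold. *Ndufs1*, the genes of the brown fat paragraphs those of the rim and the full list of cortex calls were added after their values were seen. Annotation was GENCODE M21, which held all 105 members, and promoters came from RefSeq for GRCm38.p6. Each section was 1 library of 1 mouse.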

Additional observations from a re-analysis of the deposited data

Results flagged for a closer look

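The medulla over cortex quotient of the mitochondrial to nuclear ratio was 1.01 in KO1134 and 1.07 in KO1308, and 0.723 in WT. It was noted because WT lay below 1 and neither KO section did, and the difference was not tested. Medulla and cortex were set within each section, so they need not match between KO and WT. In KO1134 the intervals of cortex (0.372 to 0.377) and medulla (0.371 to 0.383) overlapped. Bins under the gene minimum, which lay outside the kept tissue and enter no comparison, held a mitochondrial to nuclear ratio of 1.48 (KO1134) and 1.46 (KO1308) against 0.394 in WT. They can include slide beside the tissue. The sections also listed different numbers of spots, 440671 (KO1134), 1116860 (KO1308) and 1128950 (WT), so these bins are not alike between sections. The same bins held the adipocyte list at 44.5 and 20.3 times and the brown adipocyte list at 172 and 185 times WT, and the part of fat in the ratio was not tested. The isoform *Cox8b*, which the rule leaves out, stood at 10.7 and 17.8 CPM in the KO cortex against 3.43 CPM in WT. In the brown fat areas it stood at 1907 and 4103 CPM. No group was large enough to test for a section that stands apart.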

How the results depend on the processing

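The nuclear ratio of KO to WT (0.953) ran from 0.858 without KO1134 to 1.06 over all tissue bins, on both sides of 1. Each value lay within the KO spread (SD 0.135). Leaving out 1 of the 2 KO sections cannot move the mean past that SD, so those settings could not show a change. The mean mitochondrial ratio (1.20) was 2.41 over all tissue bins, 1.54 in medulla, 0.991 at the rim and 1.32 beyond 270 µm from the edge; the last pair and the rim tests were added after the data were seen. The mitochondrial to nuclear ratio of KO over WT (1.28) was 2.29 over all tissue bins and 1.72 in medulla. The medulla values compare areas that were set by each section's own share of list UMIs. The count of nuclear members above WT past the fold (0) was 1 over all tissue bins, 1 in cortex, 1 with at least 20 UMIs and 3 at a lower fold. The count below (4) was 1 with bins of at least 500 genes, 0 over all tissue bins, 0 in cortex, 0 in medulla, 2 without ribosomal protein genes in the total, 12 at a lower fold and 0 at 2-fold. With 1 KO section left out, the counts ran from 0 to 8 above and from 10 to 13 below, where past the fold is asked of 1 section only, and the ratios ran from 0.858 to 1.05, 1.16 to 1.24 and 1.10 to 1.45. In brown fat the nuclear members at least 2-fold above cortex numbered 45 without KO1308 and 70 without KO1134. Without the section as a replicate block, edgeR called 0 members in cortex and 0 in medulla (6 and 1 at an unadjusted p under 0.05) and 0 mitochondrial members at the rim (5 unadjusted); DESeq2 with the block called 47 and 1. Leaving out a section gave from 17 (without KO1308) to 31 cortex calls, with 22 without WT, 1 medulla call each time, and from 6 (without KO1308) to 11 mitochondrial and 0 to 0 nuclear members at the rim. Bins over 270 µm from the edge gave 22 cortex calls, where 2037 of 16666 genes were called. Over all genes the cortex calls were 1375 of 17976 without KO1308, 2087 of 17158 without KO1134 and 2158 of 17068 without WT. Where a setting left out sections, fewer samples entered the fit; otherwise the cause was not tested. Only 1 WT section limits every genotype value.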
